A study of Mus musculus with 7 samples.

Results

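The Serpina gene cluster of mouse chromosome 12 was described here by the CTCF and cohesin peaks of female liver. The members were 10 genes, namely Serpina1a, Serpina1b, Serpina1c, Serpina1d, Serpina1e, Serpina3k, Serpina3n, Serpina6, Serpina10 and Serpina12, of 21418 protein-coding autosomal genes in the annotation. The span from the first to the last of them was extended by 100 kb to each side, which gave a window of 998 kb (mm9, chr12:104754885-105752539), and every peak of either list that overlapped it was taken. The rule for the window and its peaks uses positions only. ChIP-seq is chromatin immunoprecipitation followed by sequencing, in which an antibody enriches the DNA that a protein occupies. It was done on livers of 8-week-old female mice of the outbred stock Crl:CD1(ICR), for which the labels name no treatment or genetic change, with 4 libraries for the insulator protein CTCF and 3 for Rad21, a subunit of cohesin. The libraries of each antibody had been pooled before peak calling, so each list is 1 measurement per peak, with no spread between mice and no test. Liver RNA was not measured in these lists, so the tissue could not be checked by its marker transcripts.

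Serpins are proteins that mostly trap and inactivate proteases, and those of clade A are largely secreted into plasma by hepatocytes. The cluster arose by gene duplication, and mice carry more copies than humans do, with a number of Serpina1 copies that varies between strains. CTCF binds DNA by an asymmetric sequence motif and can stop the extrusion of DNA loops by cohesin, so sites with both proteins often lie at loop ends, most often with a pair of motifs that point toward each other. Cohesin without CTCF is commonly found at active enhancers and promoters of the tissue. Below, CAC (cohesin-and-CTCF) peaks are those of 1 list that overlapped a peak of the other by at least 1 bp, Lone CTCF peaks are CTCF peaks without Rad21, and CNC (cohesin-non-CTCF) peaks are Rad21 peaks without CTCF.

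The sequences that mark CTCF sites around the members are shown first, since their strand gives the direction of each site. A matrix with the consensus NNGCCACNAGGGGGCGCNNN was learned from the 1000 CTCF peaks of highest fold enrichment on odd-numbered autosomes, and a match within 100 bp of a summit was called at 14.0 bits, a score reached in 1% of flanking sequence. Capitals mark the match and each line is written 5′ to 3′ along the strand of the match, named by the position of the capitals in mm9. The first 4 lines belong to CAC regions that border a stretch with a member. The next 6 run from the gap between Serpina1e and Serpina11 across Serpina11 and Serpina9 to the 3′ end of Serpina12, and the last belongs to the strongest CTCF peak of the window.
Left of Serpina6, chr12:104881746-104881765, − strand: ggcttTTGTCAGTAGAGGGCGCCAGagaga
Right of Serpina12, chr12:105304657-105304676, + strand: ctcagTTTCCAGTAGGTGGCGCTGTttgtt
Right of Serpina3n, chr12:105656887-105656906, − strand: ccaaaTGGCCACTAGGGGGTGAGCAaggct
Right of Serpina3n, chr12:105657547-105657566, − strand: cacgtGTGCCAGTAGGTGGCAGAGAggagc
Left of Serpina11, chr12:105216220-105216239, + strand: agactGTAACACTAGAGGGCGCCACtgtct
Intron of Serpina11, chr12:105223334-105223353, + strand: caaggAGGCCAGAAGAGGGCACCATatccc
3′ end of Serpina9, chr12:105233704-105233723, + strand: cttgcTTCCCAGCAGAGGGCGCCGAaaccc
Intron of Serpina9, chr12:105243090-105243109, − strand: tgtagAAGCCAGAAGGGGGCGCCAGatccc
Left of Serpina12, chr12:105256155-105256174, − strand: caaggAGGCCAGTAGAGGGCACCAAatcgc
3′ end of Serpina12, chr12:105268410-105268429, − strand: acttaCTGCCACTAGGGGGCACCAAgggcc
Strongest peak, chr12:105678449-105678468, + strand: gctttGGGCCACTAGGCGGCGACAGagcag

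In the whole window, CTCF and Rad21 peaks were dense, but they were spread very unevenly around the members. The window held 47 CTCF peaks and 55 Rad21 peaks, which is 47.1 and 55.1 per Mb, beside 22.3 and 23.3 per Mb on chromosome 12 and 27.1 and 27.2 per Mb on all autosomes. Of the 47 CTCF peaks, 34 were CAC (72.3%, 95% Wilson interval 58.2 to 83.1%), beside 73.7% of the whole CTCF list, so the share was near that background. Of the 55 Rad21 peaks, 22 were CNC (40%, 28.1 to 53.2%), beside 26.4% of the whole Rad21 list and 28.8% on chromosome 12, the latter inside the interval. These intervals cover counting error only, and neighbouring peaks share 1 locus and 1 pool. The 34 CTCF and 33 Rad21 peaks with a partner formed 33 CAC regions, because 1 broad Rad21 peak near Serpina3n overlapped 2 CTCF peaks. In 30 of the 33 regions the summits lay within 100 bp of each other.

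**Figure D1:**
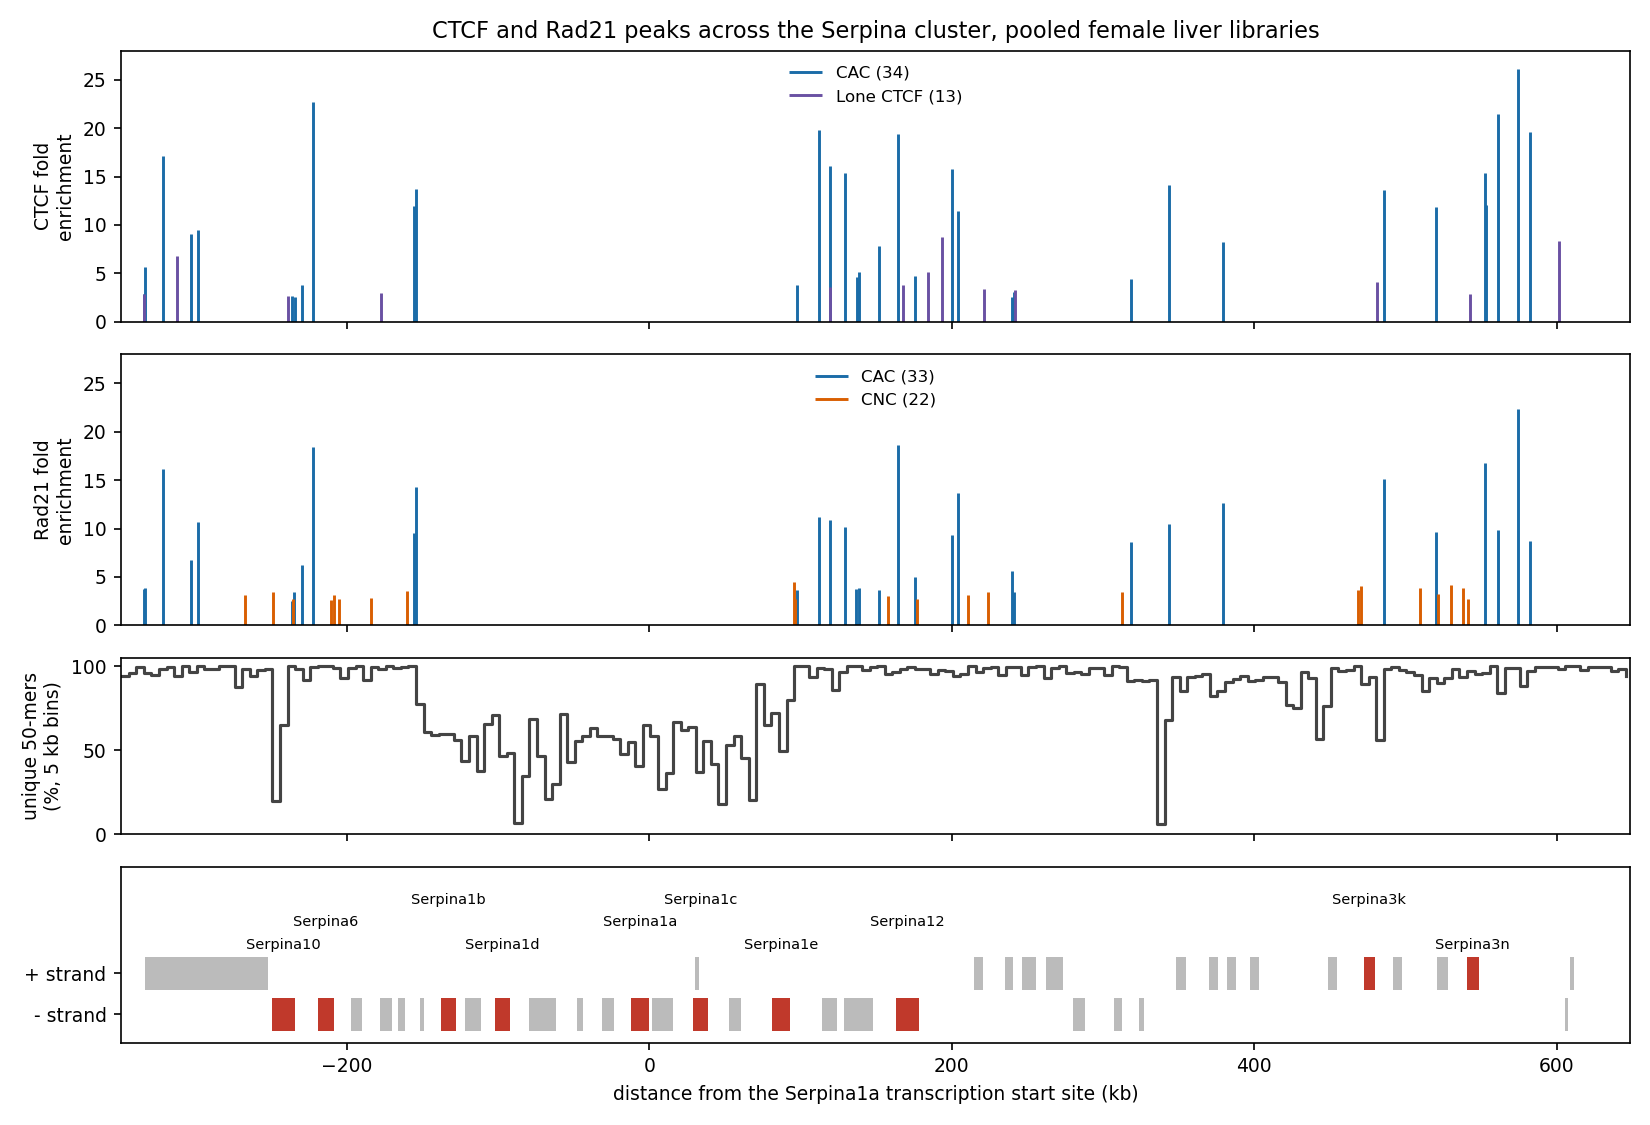
Peaks along the Serpina window, with distance from the Serpina1a start site in kb on the x axis. The upper panels plot the fold enrichment of each CTCF and each Rad21 peak at its summit, coloured by class (CAC, Lone CTCF, CNC), the next panel the share of positions with a unique 50-mer in bins of 5 kb, and the lowest the genes by strand, with the 10 members in red and others in grey. No peak of either list lies over the 5 Serpina1 members, where the share of unique 50-mers is also low.

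Peaks with both proteins had the higher medians in the window, but the classes overlapped in strength, and 20 of the 33 CAC regions had a fold of at least 5 for both proteins. Fold enrichment, the signal at a summit over the local background, had a median of 11.6 for the 34 CAC peaks of the CTCF list (2.58 to 26.1), beside 8.47 in the whole list. For the 33 CAC peaks of the Rad21 list the median was 9.58 (2.48 to 22.3), beside 6.15. The 22 CNC peaks had a median of 3.22, with a range of 2.56 to 4.44, beside 3.48 for all CNC peaks, and 5 of them reached a −log10 q of 10. The 13 Lone CTCF peaks had a median of 3.62 (2.62 to 8.77), beside 3.85. The highest CNC peak was thus below the median CAC peak of the same list, while the lowest Rad21 CAC peak (2.48) was below every CNC peak. In both lists the strongest peak was the same site, at chr12:105678214-105678711 for CTCF (fold 26.1) and chr12:105678199-105678747 for Rad21 (fold 22.3). It was intergenic, 33080 bp downstream of the start of Gsc, which encodes the homeobox protein goosecoid, and so lay outside the members.

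**Figure D2:**
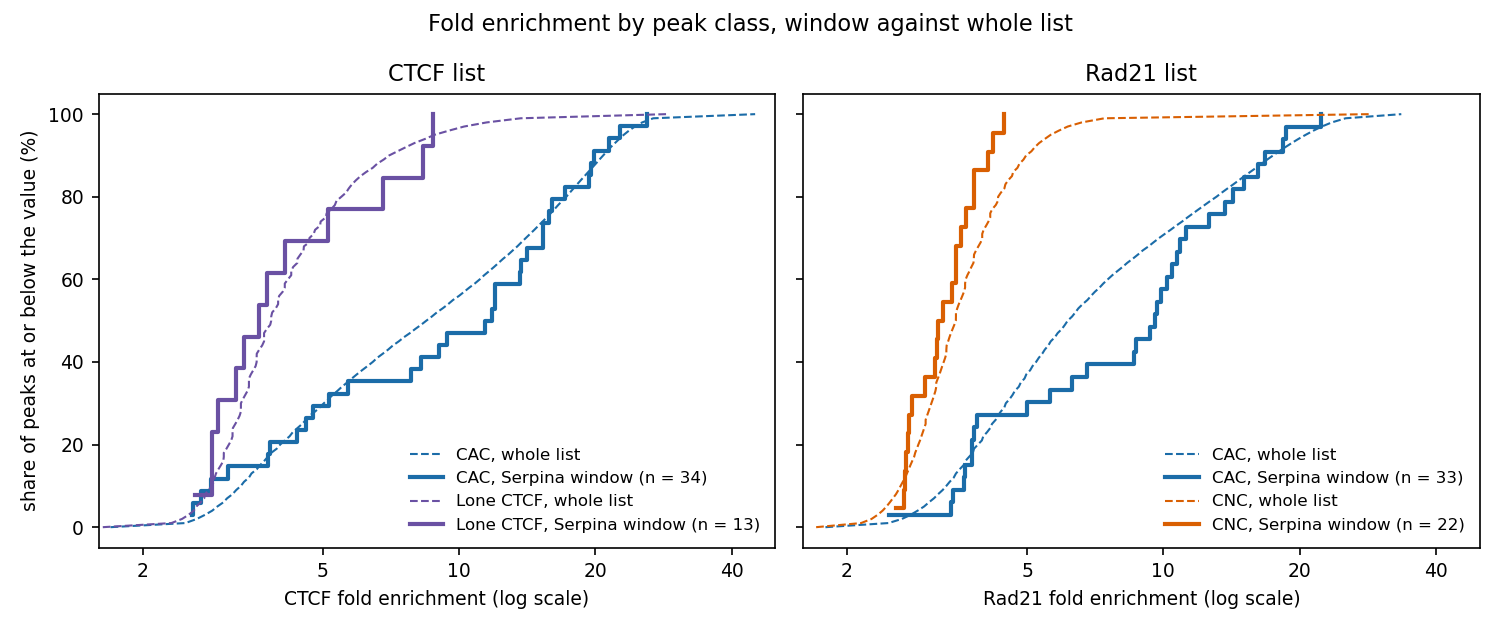
Share of peaks at or below each fold enrichment (log scale on the x axis) for the CTCF list on the left and the Rad21 list on the right. Solid steps are the peaks of the Serpina window and dashed lines all peaks of the same class in the list, and the window's CAC curves lie to the right of the whole list over the middle of the range (medians 11.6 against 8.47 for CTCF), while its CNC curve ends at 4.44.

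Taken member by member, 9 of the 10 start sites lay in 5 stretches between neighbouring CAC regions, and 1 lay inside a CAC region. All 5 Serpina1 genes shared a single stretch, and Serpina6, Serpina12, Serpina3k and Serpina3n each had a stretch with no other member in it. The stretches ran from 24.0 kb for Serpina12 to 252 kb for the Serpina1 genes. The median was 16.7 kb over all 48195 stretches between neighbouring CAC regions on the autosomes, with or without a gene start. A longer stretch is more likely to hold a start, so this median and the ranks below are not a matched background. The start of Serpina10 was the exception, inside a weak CAC region. Genes with a start in a CAC region made up 35.3% of protein-coding autosomal genes, beside this 1 of 10.

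**Figure D3:**
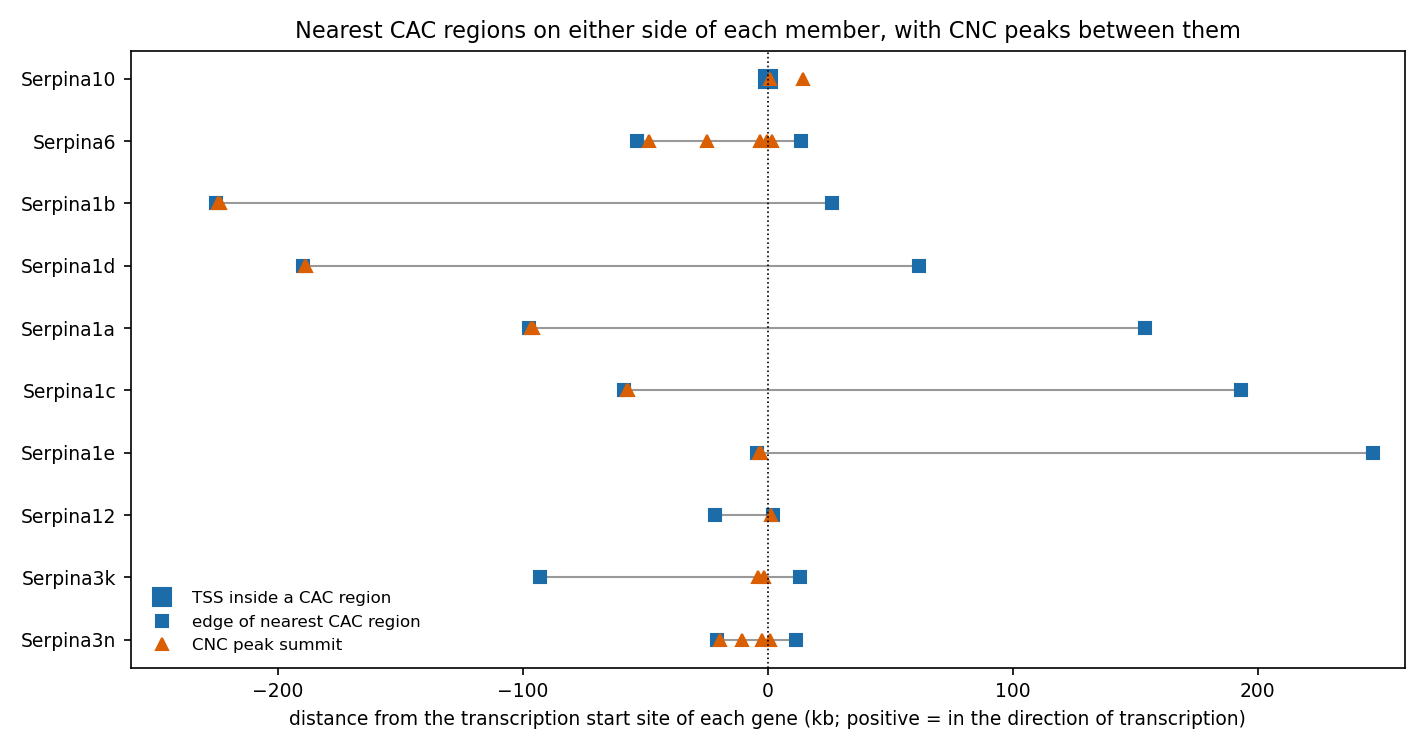
Nearest CAC regions (squares) to the left and right of each member's start site and the CNC summits between them (triangles), in kb from the start with the direction of transcription to the right. For Serpina10 the start itself is in a CAC region and the CNC peaks of its gene body are drawn. The Serpina1 genes share 1 stretch of 252 kb and differ only in where their start falls in it.

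Serpina1a to Serpina1e encode the mouse copies of alpha-1-antitrypsin, the plasma inhibitor of neutrophil elastase. All 5 are on the − strand, in the order 1b, 1d, 1a, 1c and 1e from left to right. Their stretch, chr12:104950130-105201648, was longer than 97% of the autosomal stretches and also held 8 genes that are not protein coding. Its left border was a strong pair of overlapping peaks (CTCF fold 13.7, Rad21 14.3) and its right border a weak pair (3.79 and 3.64). Neither reached the motif score, with best matches of 12.1 and 8.07 bits.

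Within that stretch, a run of 249.7 kb (chr12:104950130-105199848) carried no peak of either list and contained the whole bodies of Serpina1b, Serpina1d, Serpina1a, Serpina1c and Serpina1e. It was longer than 98.5% of 83604 peak-free gaps on the autosomes, whose median was 8.83 kb, and 1283 gaps were longer. The next longest gap in the window was 89.1 kb. The distance from the start site to the nearest Rad21 peak was 26239 bp for Serpina1b, 61673 bp for Serpina1d, 95712 bp for Serpina1a and 56752 bp for Serpina1c. Serpina1e, the rightmost copy, was the only 1 of the 5 with Rad21 near its start. A CNC peak at chr12:105199849-105200260 lay 2664 bp upstream (fold 4.44, −log10 q 11.2), the strongest CNC peak of the window, and a weaker one at chr12:105200478-105200732 lay 3293 bp upstream (fold 2.74).

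Unique sequence was also low over the peak-free run. Because the authors had kept uniquely mapped reads only, the share of positions whose 50-mer occurs once in the genome was computed. It was 52.8% in the Serpina1 stretch, 94.0% in the window outside the peak-free run and 89.5% in a sample of the autosomes. For the gene bodies it was 60.9% in Serpina1b, 57.3% in Serpina1d, 49.9% in Serpina1a, 44.7% in Serpina1c and 60.5% in Serpina1e. Within 1 kb of the start sites it was 70.4%, 54.1%, 67.3%, 58.4% and 83.7%, in the same order. Longer words raised these shares, to 79.0% of the stretch with 100-mers, and shorter ones lowered them, to 40.7% with 36-mers. Pairs of the 5 genes shared between 13.6% (Serpina1a with Serpina1b) and 34.0% (Serpina1c with Serpina1a) of the 50-mers of the first gene named. Of 628 tiles of 400 bp in the stretch, 43 had at least 90% unique 50-mers (6.85%), beside 1641 of 2494 in the whole window (65.8%). Of the 102 peaks in the window, 1 lay in sequence that was less than 80% unique. Whether CTCF or cohesin bind within the peak-free run is therefore not shown by these lists, and the part of read mapping in it was not tested. The genome used is that of another strain than the outbred mice, whose number of Serpina1 copies was not analysed here.

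**Figure D4:**
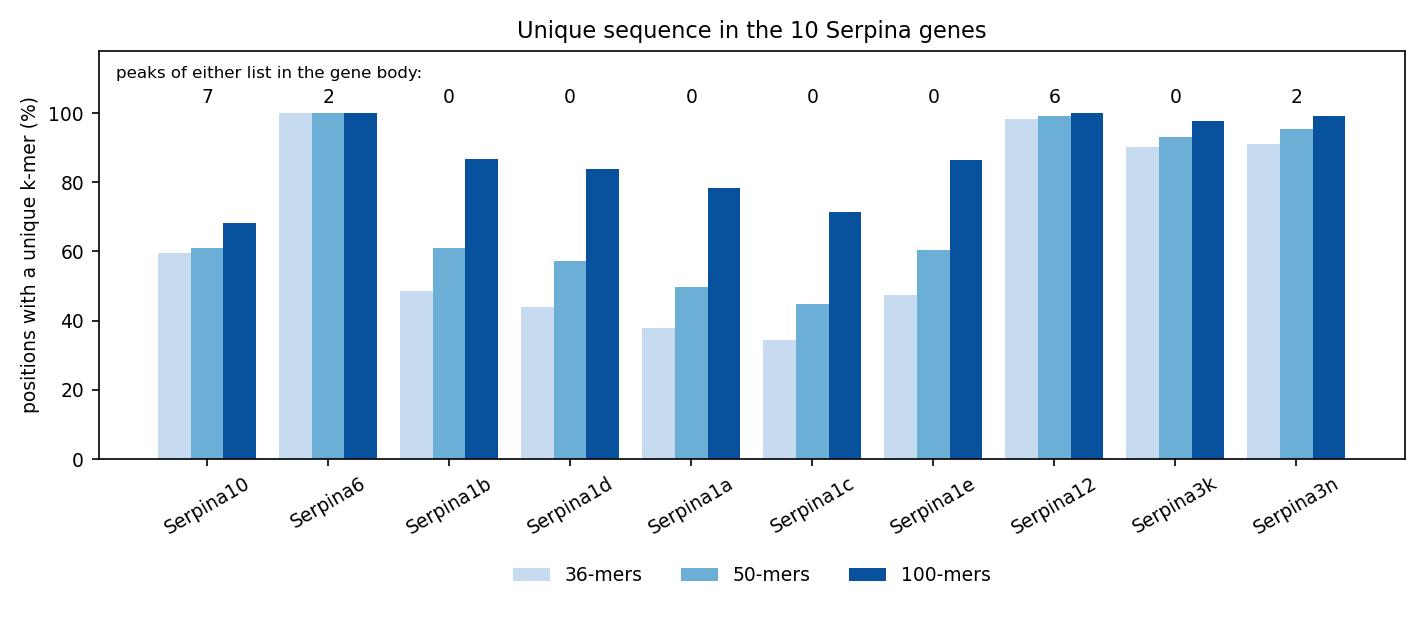
Share of positions in each member's gene body whose word of 36, 50 or 100 bases occurs once in the genome (bars, percent, from 0), in chromosomal order. The number above each gene counts the peaks of both lists in its body, a CAC region counting once per list, and it is 0 in the 5 Serpina1 genes (44.7% to 60.9% unique 50-mers) and in Serpina3k (93.2%).

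Matches to the matrix in the Serpina1 stretch were no denser than on chromosome 12. The stretch held 9 matches at or above the threshold (3.58 per 100 kb, beside 4.34 per 100 kb on chromosome 12), up to 15.8 bits. The same 30 bases, scoring 14.6 bits, occurred 5 times, in an intron of each of Serpina1b, Serpina1a, Serpina1c and Serpina1e and in the gene model Gm8893. Serpina1d had a related but not identical match of 15.8 bits. It alone reached 15.6 bits, the lowest score of the motif-bearing CAC peaks of the window. Whether any of these matches is a CTCF site was not tested. Those lines are shown because they recur with the gene copies, with capitals for the match.
Serpina1a intron, chr12:105092549-105092568, − strand: cctggTGACCTCAAGAGGGTGCTCTggaat
Serpina1d intron, chr12:105002553-105002572, − strand: cctggTGACCTCAAGAGGGAGCTCTggaat
Unique 50-mers made up between 19% (Serpina1b) and 65.2% (Gm8893) of the positions within 200 bp of these 6 matches. None of the 9 lay under a peak. The other 3 were intergenic. A pair at chr12:105171803-105171822 and chr12:105171838-105171857 had 0% and 1% unique 50-mers around it, whereas the match at chr12:105197210-105197229, next to the start of Serpina1e, had 97.5% (14.4 bits), so low uniqueness was not shared by all 9.

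Serpina6 encodes corticosteroid-binding globulin, which carries glucocorticoids in plasma and is not a protease inhibitor. It was 1 of 3 members with Rad21 within 1 kb of the start, and its peak was CNC. That peak, chr12:104895347-104895787, spanned the start site, with its summit 96 bp upstream (fold 3.12, −log10 q 10.5). A second CNC peak lay in the gene body at chr12:104893752-104894182 (fold 2.56) and another was 3088 bp upstream at chr12:104898510-104898835 (fold 2.69). No CTCF peak lay within 5 kb of the start, the nearest being 13453 bp away. The stretch of 66.6 kb, chr12:104881970-104948581, held 5 CNC peaks and 1 Lone CTCF peak and was longer than 85.4% of the autosomal stretches. Serpina1f and the gene models Gm46 and Gm5656 lay in it too. Its left border was the strongest CAC region beside a member (CTCF fold 22.7, Rad21 18.4), with the − strand motif printed above, and its right border had folds of 12 and 9.58 and a best match of 12.2 bits, under the threshold. All 50-mers in the body of Serpina6 were unique (100%), in contrast to its Serpina1 neighbours.

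Serpina10 encodes the protein Z-dependent protease inhibitor, which inactivates coagulation factor Xa. Its body carried the most peaks of the 10 members, and all of them were weak. The start site lay in a CAC region formed by a Rad21 peak at chr12:104869187-104869789 (fold 3.40, −log10 q 11.1) and a CTCF peak at chr12:104869460-104869788 (fold 2.58, −log10 q 3.69). A second CAC region was intronic, with a CTCF peak at chr12:104867838-104868066 (fold 2.69) and a Rad21 peak at chr12:104867720-104867973 (fold 2.48). Only 2.09% and 3.36% of the CTCF list had lower folds than these CTCF peaks, in the order given, and neither site had a motif. CNC peaks lay at chr12:104868674-104869129 (fold 2.70, 525 bp from the start) and chr12:104855269-104855463 (fold 3.48), and a Lone CTCF peak at chr12:104865026-104865312 (fold 2.62). The body had 61.0% unique 50-mers, but the sequence within 1 kb of the start had 100%.

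Serpina12 encodes vaspin, an adipokine that inhibits kallikrein 7. It was the only member with strong CTCF and Rad21 in its body. At its 3′ end, in the untranslated region, CTCF at chr12:105268190-105268678 had a fold of 19.4 and Rad21 at chr12:105268146-105268652 one of 18.7, over a motif of 22.7 bits on the − strand. A weaker CAC region in an intron (CTCF chr12:105279590-105280162, fold 4.76; Rad21 chr12:105279474-105280368, fold 4.99) ended 2285 bp downstream of the start and had no motif. Between this region and the start lay a CNC peak, chr12:105281164-105281544 (fold 2.67, 1109 bp from the start), and a Lone CTCF peak of fold 3.78 lay in the body at chr12:105271914-105272156. The start therefore fell in a stretch of 24.0 kb, chr12:105280369-105304359, which ended upstream at a strong CAC region (15.8 and 9.36) with a + strand motif, and 61.2% of autosomal stretches were shorter.

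Serpina3k and Serpina3n are copies of the gene for alpha-1-antichymotrypsin, on the + strand at the right end of the cluster. Serpina3k encodes a plasma serpin known as contrapsin, and Serpina3n an acute-phase serpin that inhibits granzyme B and leukocyte elastase. Both had CNC peaks within 5 kb of the start and neither had a CAC region in its body, but they lay in stretches of different length. The stretch with Serpina3k, chr12:105483734-105589958, was 106 kb long (longer than 91.6% of the autosomal stretches), began next to Serpina3g and also held Serpina3h, Serpina3i and Serpina3j. Its borders had CTCF and Rad21 folds of 8.25 and 12.6 on the left and of 13.6 and 15.1 on the right. The stretch with Serpina3n, chr12:105624407-105656604, was 32.2 kb long, held Serpina3m as well, and had borders of 11.8 and 9.67 on the left and of 15.3 and 16.7 on the right.

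At Serpina3k no peak lay in the body, and both CNC peaks were upstream of the start, at chr12:105575006-105575253 (1443 bp away, fold 4.10, −log10 q 12.7) and at chr12:105572833-105573239 (3457 bp away, fold 3.67). At Serpina3n 1 CNC peak was upstream, at chr12:105642150-105642532 (2407 bp, fold 3.81, −log10 q 11.3), and 1 in the first part of the body, at chr12:105645457-105645846 (518 bp past the start, fold 2.73). A Lone CTCF peak of fold 2.84 lay in the body of Serpina3n at chr12:105646510-105646765. Unique 50-mers made up 93.2% of the body of Serpina3k and 95.5% of that of Serpina3n, and the pair shared 0.749% of the 50-mers of Serpina3k, so these copies were far more distinct than the Serpina1 genes.

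Counted over the members, Rad21 lay within 1 kb of the start in 3 of 10 (Serpina10, Serpina6 and Serpina3n), beside 50.5% of protein-coding autosomal genes. A CNC peak lay in the body or within 1 kb of the start in 4 of 10 (Serpina10, Serpina6, Serpina12 and Serpina3n), beside 24.5%. A CAC peak lay in the body in 2 of 10 (Serpina10 and Serpina12), beside 60.6%. No peak of either list lay in the body of 6 of 10, beside 33% of these genes, and 5 of the 6 were the Serpina1 genes. With 10 genes of 1 cluster, 5 of them with 44.7% to 60.9% unique 50-mers, these counts are a description of the locus. The background genes were not matched to the members for length or for unique sequence. With 5 kb in place of 1 kb, 6 of 10 members had a CNC peak in the body or near the start, beside 26.7% of protein-coding autosomal genes, and the same 6 had Rad21 near the start, beside 62.4%, so that the latter count was near its background. These 6 members accounted for 12 of the 22 CNC peaks, and 15 of the 22 were intergenic. Over the 17 other Serpina genes and pseudogenes of the window, 2 had Rad21 within 1 kb of the start (Serpina3m and Serpina3d-ps). At Serpina3d-ps that was a CNC peak of fold 3.48, and at Serpina3m a CNC peak of fold 3.26 and the CAC peak of fold 9.67 at the border of its stretch. A CAC peak lay in the body of 3 (Serpina11, Serpina9 and Serpina5). No peak lay in the body of 12, which were Serpina4-ps1, Serpina3a, Serpina3b, Serpina3c, Serpina3d-ps, Serpina3e-ps, Serpina3f, Serpina3g, Serpina3h, Serpina3i, Serpina3j and Serpina3l-ps.

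The CTCF motif was found mostly in CAC peaks. A motif was found in 16 of the 34 CAC peaks of the window (47.1%), beside 46.5% of those on even-numbered autosomes, and in 1 of 13 Lone CTCF peaks, beside 39.6%. None of the 22 CNC peaks had one, which allows a share of up to 13.6%, beside 2.79%. The 16 motif-bearing CAC peaks had folds of 5.17 to 26.1 and scores of 15.6 to 23.7 bits, with 6 on the + and 10 on the − strand. At this threshold no stretch with a member start had a called motif at both borders. At the score reached in 5% of flanking sequence (9.94 bits) the stretches of Serpina6 and Serpina3n did, the former with both motifs on the − strand and the latter with + on the left and − on the right, facing each other. With matches within 50 bp of the summit and a threshold of 12.1 bits, the stretch of Serpina6 did as well. Of the motifs called at 14.0 bits, the one at the left of Serpina6 was on the − strand and the one at the right of Serpina12 on the + strand, so that both pointed away from the start site between the borders. Those at the right of Serpina3n were on the − strand and pointed back over Serpina3n, but the left border of that stretch had a best match of 13.4 bits on the + strand, below the threshold. Adjacent motifs of CAC peaks faced each other at 4 places, and no member start lay between such adjacent motifs. A pair lay in introns of Ppp4r4, a phosphatase subunit gene (chr12:104782512-104782531 on the + and chr12:104800793-104800812 on the − strand), and another followed the strongest peak (the motif printed above, then chr12:105686562-105686581 on the − strand). The motif right of Serpina12 faced chr12:105308052-105308071, on the − strand. The remaining set lay over Serpina11, Serpina9 and the 3′ end of Serpina12, where 3 consecutive + strand motifs (CTCF folds 19.8, 16.1 and 15.4) were followed by 3 on the − strand (5.17, 7.83 and 19.4). A CAC peak without a motif (fold 4.59) lay between the last + and the first − strand motif. Beyond the first − strand motif of a place, further − strand motifs could follow and take in member starts. The start of Serpina10 lay between the + strand motif in Ppp4r4 and the − strand motif left of Serpina6. Those of Serpina3k and Serpina3n lay between the + strand motif right of Serpina12 and the − strand motifs right of Serpina3n. Contact between these sites was not measured in the lists.

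Words recognised by liver transcription factors were searched on both strands within 100 bp of the CNC summits, a search chosen after the values were seen. Flanking sequence was taken 1 kb from CTCF summits and outside all peaks, so it was not local to the CNC peaks. TTGCNNAA, a form of the C/EBP site, occurred in 6 of 22 CNC peaks (27.3%), beside 12.9% of 17866 autosomal CNC peaks and 7.93% of flanking sequence. GTTAAT, the HNF1 half-site, occurred in 3 (13.6%), beside 6.38% of the autosomal CNC peaks and 6.50% of flanking sequence. It was thus no more frequent in CNC peaks at large than in these flanks of CTCF peaks. TGTTTAC, the FOXA word, and CAAAGTCC, a form of the HNF4A site, occurred in 1 each (4.55%), beside 4.75% and 2.85% of the autosomal CNC peaks and 2.78% and 0.888% of flanking sequence. Counts this small are a description of the window and were not tested. The CNC peak over the start of Serpina6 held both the FOXA and a C/EBP word, the peak in Serpina12 an HNF1 and a C/EBP word, and the peak upstream of Serpina3n the HNF4A word. The C/EBP words of 4 CNC peaks at members are shown, with capitals for the word.
Serpina6 start, chr12:104895473-104895480, − strand: tcgagctgatTTGCAGAAttgctgtgtt
Upstream of Serpina1e, chr12:105200107-105200114, + strand: ttcttagaacTTGCCCAActcagacctt
Serpina12 intron, chr12:105281230-105281237, + strand: actggtggggTTGCACAAtgcttctctg
Serpina3n intron, chr12:105645614-105645621, + strand: atcagccaagTTGCTTAAgtccctggct
A word is not evidence that the factor was bound, and the CNC peaks at Serpina3k and Serpina10 are without a printed line because none of the 4 words fell within 100 bp of their summits.

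Among 3 other liver gene clusters taken by the same rule, peak density ranged from well above to well below that of the Serpina window. The window of Alb, Afp and Afm, which encode albumin and its relatives, had 88.8 CTCF and 116 Rad21 peaks per Mb, with 35.3% of the Rad21 peaks CNC. The Cyp2c window, with 15 genes of drug-metabolising cytochromes, had 46.3 and 48.1 per Mb, close to the Serpina window, and 29.1% CNC. It was 5.22 Mb long, however, and so held much sequence besides those genes. The Mup window, with 21 genes of the major urinary proteins, had 10.3 and 9.79 per Mb and 25% CNC. It was 2.04 Mb long, with unknown bases in the 50-mers of 150147 positions, and the Alb window was 0.293 Mb long, much of it flank. These densities are of whole windows, which were not matched for length or for the share taken by the genes. Unique 50-mers made up 93.7% of the Alb window, 89.6% of the Cyp2c window and 33% of the Mup window, beside 83.6% of the Serpina window.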

How the data were processed

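CTCF and Rad21 ChIP-seq peak lists of female mouse liver were analysed. Per the authors, reads were aligned by Bowtie2 against mm9, those without a unique position were excluded, and MACS2 peaks were called on the pooled libraries of each antibody. Peaks in blacklisted regions or made of duplicate reads only were then dropped. Read length is not given in the sources used here, and read depth is not part of the lists. For every peak the authors deposited a fold enrichment at the summit (a ratio to local background), its p and q on the −log10 scale, a derived score, and the position of the summit. Fold enrichment and −log10 q were used as deposited, for description and filtering inside each list. The size of a CTCF fold was not set against that of a Rad21 fold. There were 0 columns for single samples left unused. Because peaks are called by a threshold, sequence without a peak may still be bound.

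Genes and sequence came from the GENCODE annotation and genome of mm9, whose chromosome lengths contained all peaks. The start site (TSS) was the 5′ end of the gene. Intervals are 95% Wilson intervals, and a count of 0 was given the limit of 3 counts. They cover counting error only. The motif matrix of 20 bp was learned within 50 bp of summits. Unique sequence was counted over the whole genome, on both strands. Steps were tested on simulated data. Python 3.11.15, numpy 2.4.6, pandas 2.3.3, scipy 1.17.1, numba 0.67.0 and matplotlib 3.10.9 were used.

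The members and the gene and word lists were chosen with earlier results of these data known. All members were named, with the other Serpina genes of the window and protein-coding genes next to a border, and peaks were named where they bounded a stretch, lay in a member or within 10 kb of its start as CNC, or were the strongest of a list. The sites with facing motifs, the peak-free run and the word searches were chosen after their values were seen. No test was run, since each list is 1 pool. Alternatives were other overlap rules, stricter peak thresholds, flanks of 50 or 200 kb, a distance of 5 kb, all transcript starts, and other motif thresholds. Male lists and other assays were not analysed here.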

Additional observations from a re-analysis of the deposited data

How the results depend on the processing

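Of 45 values recomputed under an alternative, 32 stayed within 1.5 times the main count and 13 did not. With only peaks of −log10 q of at least 10, the window held 31 Rad21 peaks (main 55) and 9 CNC peaks (main 22), of which 4 became CNC because their CTCF partner was removed. A CAC peak then lay in the body of 1 member (Serpina12) and a CNC peak at 2 (Serpina10 and Serpina6), beside 51.9% and 14.7% of protein-coding autosomal genes. Of the CNC calls at the 4 members counted, that of Serpina6 alone held, since the peak at Serpina10 was the CAC Rad21 peak over its start (−log10 q 11.1) without its CTCF partner (3.69). With only peaks of fold enrichment of at least 5, there were 28 CTCF and 23 Rad21 peaks, with 21 CAC, 7 Lone CTCF and 3 CNC. All 3 of those CNC peaks had lost a weaker CTCF partner. A CAC peak then lay in the body of 1 member, and 0 members had a CNC peak or Rad21 at the start, beside 42.6%, 10.9% and 28% of those genes. Of all CNC peaks, 90.2% were below that fold. Counting Rad21 within 5 kb of the start gave 6 members in place of 3, beside 62.4% of protein-coding autosomal genes in place of 50.5%. Fewer peaks enter under the stricter thresholds, by construction.

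The stretch of the Serpina1 genes kept its left border under all 4 overlap and threshold alternatives. Its right border moved to 105215979 under both thresholds, for a length of 266 kb, since the weak CAC region next to Serpina1e was removed. At a fold of at least 5 the stretch of Serpina12 lengthened to 35.7 kb. Serpina10 had a stretch of 75.6 kb under both thresholds and, where summits had to lie within 100 bp, one of 13.4 kb. At the 5% motif threshold 21 of the 34 CAC peaks carried a motif, beside 16. Within 50 bp of the summit 19 did, because the score reached in 1% of these shorter flanking windows was lower (12.1 in place of 14.0 bits). No paired analysis was possible because the libraries of each antibody were pooled into 1 list. The spread between mice, the depth of the pools and binding in sequence that is not unique limit what these counts show.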
